A study of Mus musculus with 12 samples.

Results

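The genes described here are 35 mouse genes of mature B cells and plasma cells, picked from the 24310 features of each library by gene symbol. Earlier results of these data were known when the list was chosen, so it is not independent of them. All 35 were found in the files. By role, 7 belong to the B-cell receptor complex and its adaptors, 13 are surface molecules, 10 are transcription factors, 4 are plasma cell genes, and Ralgps2, a guanine nucleotide exchange factor, stands alone. They were read in RNA sequencing libraries of CMM cells, a GFP-marked mouse acute myeloid leukaemia with inv(16) that was engrafted into C57BL/6 mice by vein. Mice with about 1% GFP positive blood cells received 3 injections on alternate days. RNA came from spleen cells collected 1 day later and selected for c-Kit on magnetic beads, so host cells that passed the selection would be in the RNA as well. The design text adds a GFP sort that the extraction protocol does not list.

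There were 3 groups of 4 libraries, all from engrafted mice, and the column headers gave each group another name than its sample label. Libraries labelled CpG-STAT3dODN, a TLR9 ligand joined to a decoy oligonucleotide for STAT3, were headed SCR. Libraries labelled CpG-scrODN, the same ligand joined to a scrambled oligonucleotide, were headed PBS. Libraries labelled PBS, the vehicle, were headed DEC. Groups follow the labels throughout, so a direction given here belongs to the label and to no treatment. Nothing says that each library came from its own mouse, and the p-values thus cover the spread between libraries alone, which may be technical.

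B cells sense antigen through a membrane immunoglobulin whose signals are carried by the Cd79a and Cd79b chains. The kinases Blk and Btk, the adaptor Blnk and the phospholipase encoded by Plcg2 pass the signal on. Ebf1, Pax5 and the E2A protein encoded by Tcf3 set up the B-lineage program, and Prdm1 ends it when a B cell becomes an antibody-secreting plasma cell. Spleen is rich in mature B cells, whereas Btk, Plcg2, Cd37, Tcf3 and Bcl11a are also used by myeloid or progenitor cells. That breadth is background knowledge and was not measured here.

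Promoter sequences of 4 members that were lower in both comparisons with PBS are given, because together they hold every motif searched. RefSeq promoters on GRCm38.p6, the assembly that mm10 denotes, were matched for 30 of the 35 genes. Ms4a1, Blk, Cd79b, Cxcr5 and Mzb1 are not among them. Each line holds the 250 bases before an annotated transcript start, on the gene's own strand. For Cd79a and Blnk that start is the outer end of the gene. For Cd22 and Cd72 it lies inside the gene, whose outer ends are at 30880342 and 43455102. Capitals mark matches, on either strand, to 4 motifs known from B cells: the octamer ATTTGCAT, the EBF1 palindrome core CCCNNGGG, the E-box CAGGTG and the PU.1 core AGGAAGT. Cd79a lies at chr7:24897247-24897496 on the plus strand, Cd22 at chr7:30879029-30879278 on the minus strand, Blnk at chr19:40994222-40994471 on the minus strand and Cd72 at chr4:43454627-43454876 on the minus strand.
Cd79a: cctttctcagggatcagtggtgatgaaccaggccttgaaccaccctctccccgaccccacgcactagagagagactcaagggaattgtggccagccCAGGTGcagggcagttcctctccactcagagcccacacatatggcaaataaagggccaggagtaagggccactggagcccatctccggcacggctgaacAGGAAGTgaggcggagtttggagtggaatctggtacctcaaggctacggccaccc
Cd22: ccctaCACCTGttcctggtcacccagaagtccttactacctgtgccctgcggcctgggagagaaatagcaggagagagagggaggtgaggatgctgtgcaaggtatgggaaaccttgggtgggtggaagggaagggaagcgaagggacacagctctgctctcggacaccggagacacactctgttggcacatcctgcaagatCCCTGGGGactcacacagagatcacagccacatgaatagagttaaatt
Blnk: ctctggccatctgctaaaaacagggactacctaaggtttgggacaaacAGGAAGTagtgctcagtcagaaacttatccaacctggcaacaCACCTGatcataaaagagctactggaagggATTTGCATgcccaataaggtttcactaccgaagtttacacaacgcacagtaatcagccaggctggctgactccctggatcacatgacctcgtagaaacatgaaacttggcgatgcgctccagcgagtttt
Cd72: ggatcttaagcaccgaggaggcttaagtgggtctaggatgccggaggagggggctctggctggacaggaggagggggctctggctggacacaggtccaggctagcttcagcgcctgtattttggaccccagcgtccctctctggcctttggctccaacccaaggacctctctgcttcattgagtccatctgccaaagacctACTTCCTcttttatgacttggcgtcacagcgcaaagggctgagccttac

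The capitals are letter matches, not shown binding sites. Among the 30 matched genes, the octamer was found in 1, Blnk, against 1.60% of all 32851 promoters of the same length. The EBF1 palindrome core was found in 5 genes, Foxo1, Bank1, Cd22, Spib and Sdc1, or 5 of their 37 promoters (13.5%), against 11.8%. The E-box was found in 13 genes, or 13 of their 37 promoters (35.1%), against 17.2% of all promoters. The PU.1 core was found in 6 genes, Fcrl1, Cd72, Cd79a, Cd37, Tnfrsf13b and Blnk, or 6 of 37 promoters (16.2%) against 7.69%. None of these matches overlaps another in the 4 promoters printed. The 35 genes lie on 16 chromosomes, so the members are not neighbours in 1 region.

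Levels are RPKM, reads scaled to transcript length and library size. Estimated depth was 31440000 to 36190000 reads per library, so counting error weighs most on members under 1 RPKM. Replicate 4 of the libraries labelled CpG-STAT3dODN and replicate 4 of those labelled PBS stood apart. Fos, an immediate-early gene singled out after its values were seen, had 5.91 and 12.9 RPKM there and 486 to 1160 RPKM in the other 10 libraries. Counts of members called, and the differences of some genes, are therefore given with and without these 2 libraries. A filter of 1 RPKM or more in no fewer than 4 of the 12 libraries left 10886 genes, of which 33 were members. Cr2 and Prdm1 fell short. Another 8 members (Fcrla, Fcrl1, Fcer2a, Cxcr5, Pax5, Ebf1, Mef2c and Derl3) passed only because of the PBS-labelled libraries, where they were high.

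B-lineage RNA was lower in both groups labelled with a CpG oligonucleotide than in the group labelled PBS. Summed over the 35 genes, the level was 263 to 318 RPKM in libraries labelled CpG-STAT3dODN, 214 to 255 RPKM in those labelled CpG-scrODN, and 497 to 1192 RPKM in those labelled PBS. None of the 8 CpG-labelled libraries reached the lowest library labelled PBS. In CpG-scrODN minus PBS, 25 of the 33 members tested were lower and 0 higher at an adjusted p under 0.05 (limma on log2(RPKM + 1), Benjamini-Hochberg over all genes, two-sided), against 4.04% of all genes lower and 0.110% higher. In CpG-STAT3dODN minus PBS, 20 of 33 were lower and 0 higher, against 1.83% of all genes lower and 0.0276% higher. The groups did not overlap, with PBS higher, for 26 of 33 members in CpG-scrODN minus PBS, against 10.0% of all genes, and for 23 of 33 in CpG-STAT3dODN minus PBS, against 4.23%. Both comparisons share the 4 libraries labelled PBS and are not independent.

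The median difference of the members tested was -2.15 on the log2(RPKM + 1) scale for CpG-scrODN minus PBS, against -0.046 for all genes. For CpG-STAT3dODN minus PBS it was -1.64, against -0.011. The 8 members that needed the PBS-labelled libraries to pass are part of these counts, and by that filter they had to be high there. Among the other 25 tested, 17 were lower in CpG-scrODN minus PBS and 13 in CpG-STAT3dODN minus PBS. Without the 2 libraries of low Fos, 26 of 33 members were lower in CpG-scrODN minus PBS and 25 in CpG-STAT3dODN minus PBS, and 0 were higher. Over all 10886 genes, 575 were then lower and 111 higher in the first comparison, and 295 lower and 42 higher in the second. In bulk RNA, fewer B-lineage cells in the preparation and less of these RNAs per cell cannot be told apart.

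**Figure D1:**
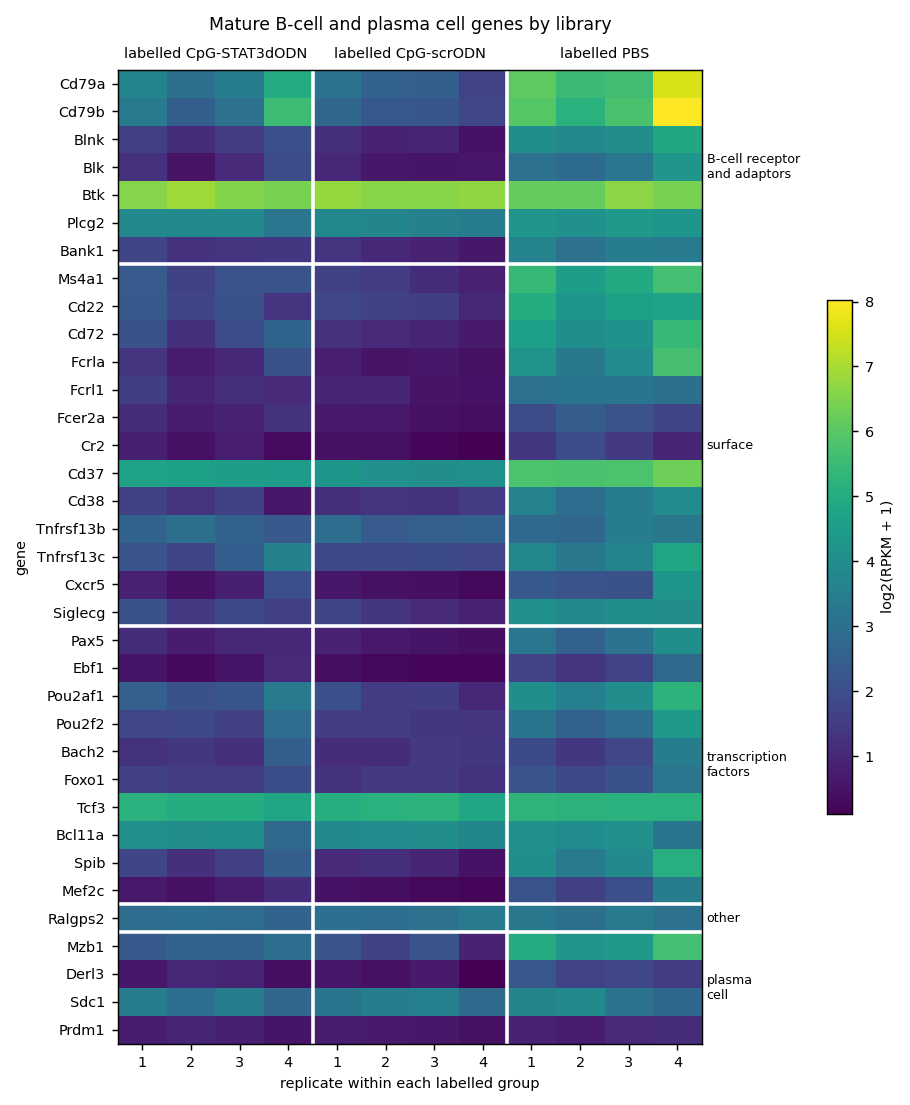
Heat map of log2(RPKM + 1) for the 35 genes (rows, by role) in the 12 libraries (columns, replicates 1 to 4 of each labelled group). Most rows are brightest in the libraries labelled PBS, while Btk, Tcf3, Cd37 and Bcl11a are bright in all groups.

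Within the B-cell receptor complex, 6 of 7 members were lower in CpG-scrODN minus PBS and 4 of 7 in CpG-STAT3dODN minus PBS. Cd79a, one of the 2 signalling chains of the receptor, had 11.8, 7.27, 9.77 and 30.4 RPKM in replicates 1 to 4 labelled CpG-STAT3dODN. Its values were 7.80, 4.94, 4.67 and 2.35 RPKM in those labelled CpG-scrODN and 66.4, 45.0, 47.6 and 187 RPKM in those labelled PBS. The lowest library labelled PBS was above every other library, and replicate 4 was the highest within both the CpG-STAT3dODN and the PBS group. Mean Cd79a was 17.5-fold lower in the libraries labelled CpG-scrODN than in those labelled PBS, or -3.70 ± 0.50 (SE, log2 scale; limma adjusted p = 0.0012). In libraries labelled CpG-STAT3dODN it was 5.84-fold lower than in those labelled PBS, or -2.41 ± 0.50 (limma adjusted p = 0.0303). That last call was lost when replicate 1, 2 or 3 labelled CpG-STAT3dODN or replicate 1 labelled PBS was left out, with a limma adjusted p of up to 0.119. Without the 2 low-Fos libraries the differences were -3.25 in CpG-scrODN minus PBS (limma adjusted p = 8.46e-05) and -2.35 in CpG-STAT3dODN minus PBS (limma adjusted p = 0.00182).

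Cd79b, the partner chain, had 9.68, 4.71, 7.57 and 45.6 RPKM in libraries labelled CpG-STAT3dODN, 5.61, 3.89, 3.70 and 2.46 RPKM in those labelled CpG-scrODN and 60.2, 35.3, 52.8 and 260.3 RPKM in those labelled PBS. Replicate 4 labelled CpG-STAT3dODN, at 45.6 RPKM, lay above the lowest library labelled PBS, at 35.3 RPKM, so these 2 groups overlapped. Cd79b was lower in CpG-scrODN minus PBS, at -3.96 ± 0.67 (limma adjusted p = 0.0048). For CpG-STAT3dODN minus PBS the difference of -2.58 ± 0.67 did not pass (limma adjusted p = 0.0963). It passed when replicate 4 labelled CpG-STAT3dODN was left out, at -3.21 (limma adjusted p = 0.0138), and at -2.61 without both low-Fos libraries (limma adjusted p = 0.00075).

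Blnk, the adaptor that brings Btk and the phospholipase to the receptor, had 2.10, 1.19, 1.82 and 3.14 RPKM in libraries labelled CpG-STAT3dODN, 1.31, 0.819, 0.915 and 0.426 RPKM in those labelled CpG-scrODN and 15.7, 13.2, 15.4 and 27.8 RPKM in those labelled PBS. Its mean was 20.8-fold lower in CpG-scrODN than in PBS libraries (limma adjusted p = 2.12e-05) and 8.75-fold lower in CpG-STAT3dODN than in PBS libraries (limma adjusted p = 0.0002). Its promoter, printed above, was the only one of the 30 with the octamer. Blk, a Src-family kinase, ranged over 0.444 to 2.91 RPKM in libraries labelled CpG-STAT3dODN, 0.494 to 1.02 RPKM in those labelled CpG-scrODN and 6.46 to 17.9 RPKM in those labelled PBS. Blk differed by -2.66 in CpG-scrODN minus PBS (limma adjusted p = 0.000549) and -2.16 in CpG-STAT3dODN minus PBS (limma adjusted p = 0.00407). Bank1, an adaptor of the same pathway, ranged over 1.36 to 2.44 RPKM in libraries labelled CpG-STAT3dODN, 0.556 to 1.53 RPKM in those labelled CpG-scrODN and 7.45 to 11.5 RPKM in those labelled PBS. Bank1 differed by -2.41 in CpG-scrODN minus PBS (limma adjusted p = 1.89e-05) and -1.93 in CpG-STAT3dODN minus PBS (limma adjusted p = 0.000179), so both genes were lower in both comparisons.

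For the 2 receptor-proximal enzymes that myeloid cells share, differences were small. Btk, the Tec-family kinase, had 95.9, 119.6, 92.9 and 85.0 RPKM in libraries labelled CpG-STAT3dODN, 108, 98.2, 97.3 and 104 RPKM in those labelled CpG-scrODN and 70.2, 70.5, 99.2 and 85.9 RPKM in those labelled PBS. The groups overlapped, and the differences from PBS of 0.33 (CpG-scrODN, 95% interval 0.056 to 0.61) and 0.27 (CpG-STAT3dODN, -0.0057 to 0.55) did not pass (limma adjusted p = 0.219 and 0.553). With libraries weighted by their quality in the fit, Btk was called higher in both comparisons (limma adjusted p = 0.00399 and 0.0107). Plcg2 had 13.2, 14.1, 13.6 and 8.28 RPKM in libraries labelled CpG-STAT3dODN, 13.0, 12.2, 10.8 and 10.1 RPKM in those labelled CpG-scrODN and 18.1, 16.4, 19.9 and 18.3 RPKM in those labelled PBS. Every library labelled PBS was above every other, yet the size was small, 1.58-fold lower in CpG-scrODN libraries (limma adjusted p = 0.034) and 1.48-fold lower in CpG-STAT3dODN libraries (limma adjusted p = 0.109, not passed). Leaving out any 1 of the 8 libraries of the CpG-scrODN and PBS groups ended the first call, with limma adjusted p of 0.0506 to 0.115, while without both low-Fos libraries it was 0.00222.

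Of 19 further genes of B-cell receptor signalling, all tested, 7 were lower and 0 higher in CpG-scrODN minus PBS, and the same numbers held for CpG-STAT3dODN minus PBS. Their median difference was -0.37 in the first comparison and -0.29 in the second. Among those lower in both, with the difference in CpG-scrODN minus PBS before that in CpG-STAT3dODN minus PBS, were the tetraspanin gene Cd81 (-0.92 and -0.64), the inhibitory Fc receptor gene Fcgr2b (-1.42 and -1.41), the kinase gene Syk (-1.34 and -1.16), Pik3ap1 (-1.98 and -1.52), Rasgrp3 (-1.54 and -1.17) and Vav2 (-1.09 and -1.003). In CpG-STAT3dODN minus PBS, leaving out replicate 1, 2 or 3 labelled CpG-STAT3dODN or replicate 1, 2 or 4 labelled PBS ended the call of Cd81, replicate 2 or 3 labelled CpG-STAT3dODN or replicate 1 labelled PBS that of Rasgrp3, and replicate 1 labelled PBS that of Syk. Rasgrp3 passed the filter only because of the PBS-labelled libraries, where it was high. Without the 2 low-Fos libraries the counts were again 7 and 7. Of 13 immunoglobulin gene symbols looked for, 0 were found in the files, so these genes were not analysed here.

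**Figure D2:**
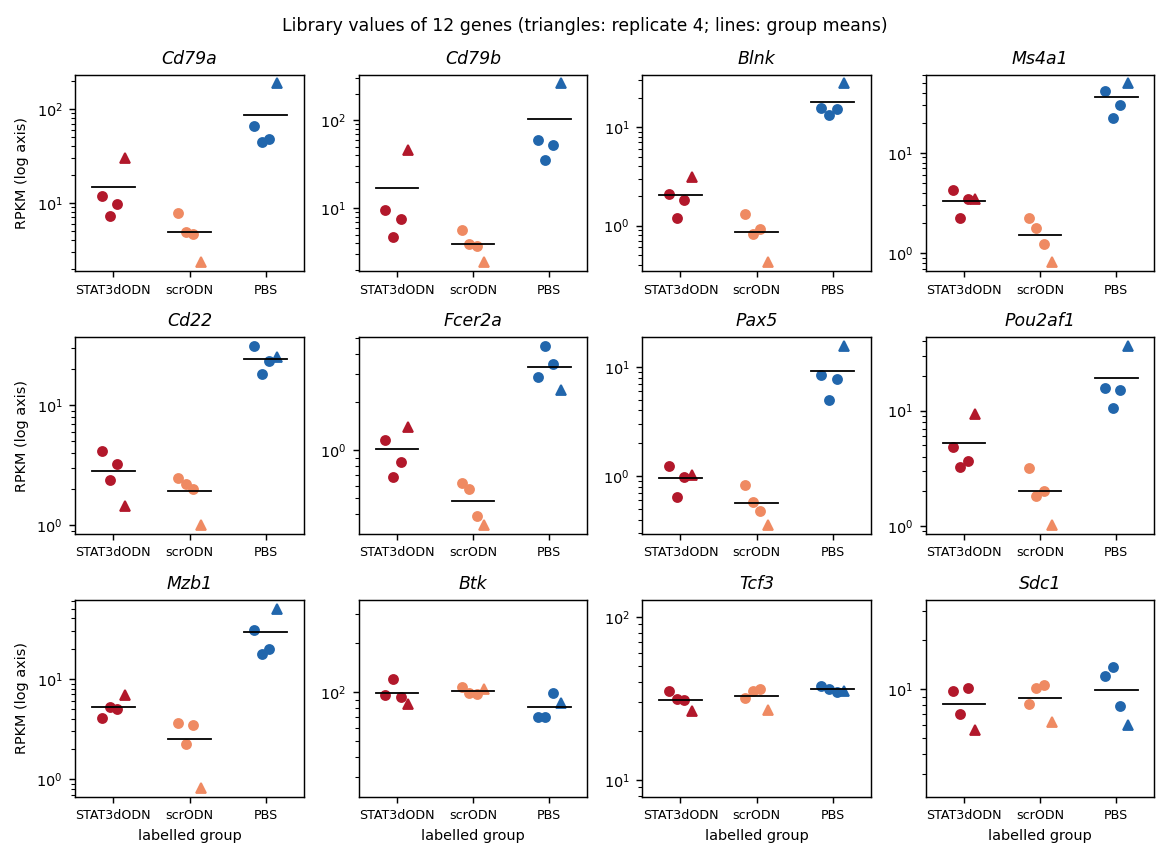
RPKM (log axis) of 12 genes in each of the 4 libraries per labelled group, with replicate 4 as triangles and group means as lines. For Cd79a, Blnk, Ms4a1, Cd22, Fcer2a, Pax5, Pou2af1 and Mzb1 every library labelled PBS is above every other library, and for Btk, Tcf3 and Sdc1 the groups overlap.

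Among the 13 surface genes, 12 were tested, and 11 were lower in CpG-scrODN minus PBS and 9 in CpG-STAT3dODN minus PBS. Ms4a1, which encodes the B-cell antigen CD20, had 4.23, 2.22, 3.46 and 3.43 RPKM in libraries labelled CpG-STAT3dODN, 2.22, 1.79, 1.24 and 0.813 RPKM in those labelled CpG-scrODN and 41.4, 22.1, 30.1 and 49.3 RPKM in those labelled PBS. Every library labelled PBS was above 20 RPKM, and replicate 2 labelled CpG-STAT3dODN and replicate 1 labelled CpG-scrODN met at 2.22 RPKM. Its mean was 23.6-fold lower in CpG-scrODN than in PBS libraries, or -3.84 ± 0.25 (limma adjusted p = 1.27e-05). In CpG-STAT3dODN libraries it was 10.7-fold lower than in PBS libraries, or -3.04 ± 0.25 (limma adjusted p = 0.000152).

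Cd22, an inhibitory lectin that damps receptor signals, had 4.15, 2.39, 3.26 and 1.46 RPKM in libraries labelled CpG-STAT3dODN, 2.49, 2.20, 1.999 and 1.004 RPKM in those labelled CpG-scrODN and 31.2, 18.4, 23.7 and 25.3 RPKM in those labelled PBS. Replicate 4 labelled CpG-STAT3dODN was the lowest of its group here, unlike for Cd79a. Cd22 was lower, with differences of -3.14 in CpG-scrODN minus PBS (limma adjusted p = 3.45e-05) and -2.78 in CpG-STAT3dODN minus PBS (limma adjusted p = 0.000167). Siglecg, a related lectin, ranged over 1.67 to 3.25 RPKM in libraries labelled CpG-STAT3dODN, 0.837 to 2.43 RPKM in those labelled CpG-scrODN and 13.2 to 15.9 RPKM in those labelled PBS. Siglecg was lower as well, at -2.71 in CpG-scrODN minus PBS (limma adjusted p = 1.87e-05) and -2.24 in CpG-STAT3dODN minus PBS (limma adjusted p = 0.000152). Cd72, another inhibitory receptor, had 3.27, 1.29, 2.90 and 5.34 RPKM in libraries labelled CpG-STAT3dODN, 1.37, 1.13, 0.922 and 0.629 RPKM in those labelled CpG-scrODN and 22.9, 15.6, 17.2 and 41.7 RPKM in those labelled PBS. The differences for Cd72 were -3.56 in CpG-scrODN minus PBS (limma adjusted p = 0.000113) and -2.58 in CpG-STAT3dODN minus PBS (limma adjusted p = 0.00153).

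Fcrla, an intracellular Fc receptor-like protein of B cells, had 1.46, 0.685, 1.01 and 3.24 RPKM in libraries labelled CpG-STAT3dODN, 0.724, 0.440, 0.531 and 0.401 RPKM in those labelled CpG-scrODN and 17.4, 9.07, 14.4 and 50.3 RPKM in those labelled PBS. The 43.5-fold difference in means between CpG-scrODN and PBS libraries was the largest ratio among the 33 members tested, with replicate 4 labelled PBS at 50.3 RPKM. Fcrla was lower on the log2 scale, at -3.69 in CpG-scrODN minus PBS (limma adjusted p = 0.000391) and -3.002 in CpG-STAT3dODN minus PBS (limma adjusted p = 0.00284). Without the 2 low-Fos libraries the differences were -3.22 in CpG-scrODN minus PBS (limma adjusted p = 2.72e-05) and -2.80 in CpG-STAT3dODN minus PBS (limma adjusted p = 0.000235). Fcrl1, a surface relative of Fcrla, had 1.98, 0.901, 1.34 and 1.10 RPKM in libraries labelled CpG-STAT3dODN, 0.940, 0.966, 0.461 and 0.423 RPKM in those labelled CpG-scrODN and 7.67, 8.09, 8.19 and 7.19 RPKM in those labelled PBS. Its 4 libraries labelled PBS, replicate 4 included, lay between 7.19 and 8.19 RPKM, and the differences were -2.39 in CpG-scrODN minus PBS (limma adjusted p = 1.27e-05) and -1.93 in CpG-STAT3dODN minus PBS (limma adjusted p = 0.000143).

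Fcer2a, the low-affinity IgE receptor CD23 of follicular B cells, had 1.16, 0.676, 0.846 and 1.41 RPKM in libraries labelled CpG-STAT3dODN, 0.623, 0.573, 0.389 and 0.342 RPKM in those labelled CpG-scrODN and 2.87, 4.47, 3.46 and 2.39 RPKM in those labelled PBS. On the log2 scale Fcer2a was lower, at -1.52 in CpG-scrODN minus PBS (limma adjusted p = 0.000265) and -1.08 in CpG-STAT3dODN minus PBS (limma adjusted p = 0.00433). In libraries labelled PBS its highest value was in replicate 2 and its lowest in replicate 4, where Cd79a had its lowest and its highest. Cr2, which encodes the complement receptors CD21 and CD35, had 0.747, 0.385, 0.720 and 0.272 RPKM in libraries labelled CpG-STAT3dODN, 0.403, 0.390, 0.201 and 0.0929 RPKM in those labelled CpG-scrODN and 1.62, 2.93, 1.77 and 0.943 RPKM in those labelled PBS. It was too low for the filter, and in a fit without the filter it was lower, at -1.11, in CpG-scrODN minus PBS (limma adjusted p = 0.0124), while a difference of -0.85 in CpG-STAT3dODN minus PBS did not pass (limma adjusted p = 0.0721).

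Cd37, a tetraspanin of leukocytes, had 24.7, 23.4, 22.6 and 21.0 RPKM in libraries labelled CpG-STAT3dODN, 19.0, 16.3, 15.1 and 16.0 RPKM in those labelled CpG-scrODN and 54.0, 53.3, 54.6 and 76.9 RPKM in those labelled PBS. No groups overlapped. Cd37 was lower, with differences of -1.77 in CpG-scrODN minus PBS (limma adjusted p = 1.47e-05) and -1.33 in CpG-STAT3dODN minus PBS (limma adjusted p = 0.000185). In means, that is 3.60-fold lower in CpG-scrODN and 2.60-fold lower in CpG-STAT3dODN libraries than in PBS libraries. It was the only member over 5 RPKM in the CpG-scrODN group, apart from Plcg2, to pass in any comparison. Cd38, an NAD-consuming ectoenzyme, had 2.20, 1.46, 2.15 and 0.531 RPKM in libraries labelled CpG-STAT3dODN, 1.26, 1.51, 1.44 and 1.85 RPKM in those labelled CpG-scrODN and 11.3, 6.64, 9.76 and 14.2 RPKM in those labelled PBS. Its differences were -2.15 in CpG-scrODN minus PBS (limma adjusted p = 0.000391) and -2.17 in CpG-STAT3dODN minus PBS (limma adjusted p = 0.000818).

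Of 2 receptors for the B-cell survival factor BAFF, 1 passed in CpG-scrODN minus PBS and 0 in CpG-STAT3dODN minus PBS. Tnfrsf13c, the BAFF receptor of mature B cells, had 3.62, 2.41, 4.56 and 11.1 RPKM in libraries labelled CpG-STAT3dODN, 2.58, 2.64, 2.76 and 2.47 RPKM in those labelled CpG-scrODN and 12.9, 8.74, 11.98 and 26.5 RPKM in those labelled PBS. The gene was lower, at -2.04, in CpG-scrODN minus PBS (limma adjusted p = 0.00716). The CpG-STAT3dODN difference from PBS, -1.38, did not pass (limma adjusted p = 0.109), but passed without replicate 4 labelled CpG-STAT3dODN (limma adjusted p = 0.0117). Tnfrsf13b, the second receptor, named TACI, had 5.19, 7.30, 5.14 and 4.003 RPKM in libraries labelled CpG-STAT3dODN, 6.96, 4.28, 4.82 and 4.997 RPKM in those labelled CpG-scrODN and 6.08, 5.66, 9.87 and 8.69 RPKM in those labelled PBS. All groups overlapped, and differences of -0.44 in CpG-scrODN minus PBS (95% interval -0.87 to -0.011) and -0.41 in CpG-STAT3dODN minus PBS (-0.84 to 0.015) did not pass (limma adjusted p = 0.305 and 0.564). Whether these 2 receptors differed from each other in their response was not tested.

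Cxcr5, the chemokine receptor that guides B cells into follicles, had 0.784, 0.389, 0.770 and 3.17 RPKM in libraries labelled CpG-STAT3dODN, 0.550, 0.398, 0.361 and 0.209 RPKM in those labelled CpG-scrODN and 4.13, 3.55, 3.24 and 18.2 RPKM in those labelled PBS. Replicate 4 was far above the other 3 in both the CpG-STAT3dODN and the PBS group. Cxcr5 was lower, at -2.26, in CpG-scrODN minus PBS (limma adjusted p = 0.014), and its difference of -1.67 in CpG-STAT3dODN minus PBS did not pass (limma adjusted p = 0.118). It passed there without replicate 4 labelled CpG-STAT3dODN (limma adjusted p = 0.0407) and without both low-Fos libraries, at -1.50 (limma adjusted p = 0.000451).

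A list of 20 other symbols seen in mature B cells had 18 genes tested, of which 13 were lower and 0 higher in CpG-scrODN minus PBS, and 10 lower and 0 higher in CpG-STAT3dODN minus PBS. These counts include Fcrl5, Ccr6, Chst3, Cd40, Cd83, Vpreb3 and Ccr7 among the genes tested. They passed the filter only because of the PBS-labelled libraries, where they were high. Ly6d, a surface antigen of B-lineage cells, had 5.46, 3.58, 5.87 and 5.25 RPKM in libraries labelled CpG-STAT3dODN, 3.30, 2.85, 2.53 and 1.04 RPKM in those labelled CpG-scrODN and 75.7, 47.6, 62.3 and 90.5 RPKM in those labelled PBS. Its differences, -4.37 in CpG-scrODN minus PBS (limma adjusted p = 9.79e-06) and -3.51 in CpG-STAT3dODN minus PBS (limma adjusted p = 5.54e-05), were larger in size than those of any member tested. The Fc receptor-like gene Fcrl5 was lower, at -2.56 in CpG-scrODN minus PBS (limma adjusted p = 1.27e-05) and -2.38 in CpG-STAT3dODN minus PBS (limma adjusted p = 5.54e-05). H2-DMb2, a chain of the class II loading complex, was lower, at -3.05 in CpG-scrODN minus PBS (limma adjusted p = 0.00134) and -2.12 in CpG-STAT3dODN minus PBS (limma adjusted p = 0.0231). The IgM receptor gene Fcmr was lower, at -2.12 in CpG-scrODN minus PBS (limma adjusted p = 0.000816) and -1.36 in CpG-STAT3dODN minus PBS (limma adjusted p = 0.0235). In CpG-STAT3dODN minus PBS, leaving out replicate 2 or 3 labelled CpG-STAT3dODN or replicate 1 labelled PBS ended the calls of H2-DMb2 and Fcmr, and replicate 1 labelled CpG-STAT3dODN that of H2-DMb2. Without the 2 low-Fos libraries, 14 were lower and 1 higher in the first comparison, and 13 lower and 1 higher in the second.

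Of the 10 transcription factors, 6 were lower in CpG-scrODN minus PBS and 5 in CpG-STAT3dODN minus PBS. Pax5, which fixes B-lineage identity, had 1.23, 0.637, 0.991 and 1.02 RPKM in libraries labelled CpG-STAT3dODN, 0.828, 0.582, 0.483 and 0.358 RPKM in those labelled CpG-scrODN and 8.38, 5.01, 7.71 and 15.5 RPKM in those labelled PBS. Every library labelled PBS had at least 5.01 RPKM, and the other libraries had at most 1.23 RPKM. Pax5 was lower, with differences of -2.61 in CpG-scrODN minus PBS (limma adjusted p = 0.000129) and -2.28 in CpG-STAT3dODN minus PBS (limma adjusted p = 0.000661). Without the 2 low-Fos libraries these were -2.34 in CpG-scrODN minus PBS (limma adjusted p = 4.8e-05) and -2.03 in CpG-STAT3dODN minus PBS (limma adjusted p = 0.000451).

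Ebf1, which acts with Pax5 early in the lineage, had 0.497, 0.248, 0.471 and 1.11 RPKM in libraries labelled CpG-STAT3dODN, 0.341, 0.222, 0.198 and 0.195 RPKM in those labelled CpG-scrODN and 2.27, 1.52, 2.26 and 6.28 RPKM in those labelled PBS. Its differences were -1.60 in CpG-scrODN minus PBS (limma adjusted p = 0.00574) and -1.27 in CpG-STAT3dODN minus PBS (limma adjusted p = 0.04). Mef2c, which supports B-cell proliferation after receptor signals, had 0.584, 0.381, 0.685 and 1.24 RPKM in libraries labelled CpG-STAT3dODN, 0.410, 0.321, 0.216 and 0.206 RPKM in those labelled CpG-scrODN and 3.499, 2.07, 3.19 and 9.84 RPKM in those labelled PBS. The differences for Mef2c were -1.96 in CpG-scrODN minus PBS (limma adjusted p = 0.00322) and -1.56 in CpG-STAT3dODN minus PBS (limma adjusted p = 0.0235). The CpG-STAT3dODN calls of both genes ended without replicate 1, 2 or 3 of that group or without replicate 1 labelled PBS, and that of Ebf1 also without replicate 3 labelled PBS. The limma adjusted p then reached at most 0.148 for Ebf1 and 0.0953 for Mef2c. With both low-Fos libraries left out, both genes passed in both comparisons.

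The octamer factors and the ETS factor Spib showed the same order of groups. Pou2af1, the B-cell coactivator of octamer factors, had 4.84, 3.26, 3.69 and 9.39 RPKM in libraries labelled CpG-STAT3dODN, 3.16, 1.83, 2.004 and 1.02 RPKM in those labelled CpG-scrODN and 15.7, 10.6, 14.98 and 36.2 RPKM in those labelled PBS. On the log2 scale Pou2af1 was lower, at -2.66 in CpG-scrODN minus PBS (limma adjusted p = 0.00134) and -1.64 in CpG-STAT3dODN minus PBS (limma adjusted p = 0.0456). The second call ended without replicate 1, 2 or 3 labelled CpG-STAT3dODN or replicate 1, 3 or 4 labelled PBS, with limma adjusted p of up to 0.17. Pou2f2, the octamer factor Oct-2, had 2.46, 2.56, 2.10 and 6.78 RPKM in libraries labelled CpG-STAT3dODN, 1.93, 1.88, 1.63 and 1.46 RPKM in those labelled CpG-scrODN and 8.06, 5.07, 6.91 and 19.8 RPKM in those labelled PBS. Pou2f2 was lower, at -1.84, in CpG-scrODN minus PBS (limma adjusted p = 0.0116), while its difference of -1.23 in CpG-STAT3dODN minus PBS did not pass (limma adjusted p = 0.155). Without replicate 4 labelled CpG-STAT3dODN it did (limma adjusted p = 0.0363). Spib, related to PU.1, had 2.43, 1.34, 2.09 and 4.71 RPKM in libraries labelled CpG-STAT3dODN, 1.16, 1.303, 0.908 and 0.414 RPKM in those labelled CpG-scrODN and 15.6, 9.60, 13.5 and 33.6 RPKM in those labelled PBS. Spib was lower, at -3.17 in CpG-scrODN minus PBS (limma adjusted p = 0.000302) and -2.32 in CpG-STAT3dODN minus PBS (limma adjusted p = 0.00439).

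Another 4 factors did not pass in either comparison with PBS. Tcf3, the broadly used E2A gene, had 35.2, 31.1, 31.1 and 26.5 RPKM in libraries labelled CpG-STAT3dODN, 31.8, 35.2, 36.3 and 26.9 RPKM in those labelled CpG-scrODN and 37.8, 36.2, 34.7 and 35.3 RPKM in those labelled PBS. The groups overlapped, and the differences for Tcf3 were -0.15 in CpG-scrODN minus PBS (95% interval -0.38 to 0.082) and -0.22 in CpG-STAT3dODN minus PBS (-0.45 to 0.015), with limma adjusted p of 0.532 and 0.591. Bcl11a, a zinc finger factor needed for B-cell development, had 16.1, 15.3, 15.7 and 6.21 RPKM in libraries labelled CpG-STAT3dODN, 13.6, 14.7, 15.2 and 12.5 RPKM in those labelled CpG-scrODN and 16.0, 14.6, 16.2 and 8.12 RPKM in those labelled PBS. Its lowest values in the CpG-STAT3dODN and the PBS group were those of replicate 4. Bcl11a differed by 0.067 in CpG-scrODN minus PBS (limma adjusted p = 0.92) and -0.076 in CpG-STAT3dODN minus PBS (limma adjusted p = 1). Bach2, which holds back plasma cell differentiation, had 1.41, 1.62, 1.296 and 4.67 RPKM in libraries labelled CpG-STAT3dODN, 1.19, 1.24, 1.68 and 1.62 RPKM in those labelled CpG-scrODN and 2.69, 1.66, 2.497 and 9.76 RPKM in those labelled PBS. Its differences were -0.85 in CpG-scrODN minus PBS (limma adjusted p = 0.329) and -0.54 in CpG-STAT3dODN minus PBS (limma adjusted p = 0.889), and without both low-Fos libraries -0.42 in CpG-scrODN minus PBS (limma adjusted p = 0.0936) and -0.41 in CpG-STAT3dODN minus PBS (limma adjusted p = 0.183). Foxo1, which acts in early B-cell development and homing, had 2.04, 1.80, 1.90 and 3.06 RPKM in libraries labelled CpG-STAT3dODN, 1.44, 1.74, 1.75 and 1.42 RPKM in those labelled CpG-scrODN and 3.62, 2.56, 3.23 and 8.26 RPKM in those labelled PBS. For Foxo1, libraries labelled CpG-scrODN were all below those labelled PBS, with a difference of -0.96 (limma adjusted p = 0.0519) that passed without replicate 2 labelled PBS (-1.13, limma adjusted p = 0.0272) or replicate 4 labelled PBS (-0.67, limma adjusted p = 0.0223). In CpG-STAT3dODN minus PBS, Foxo1 differed by -0.67 (limma adjusted p = 0.323), and by -0.50 without both low-Fos libraries (limma adjusted p = 0.0373).

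Ralgps2, found in B cells but not specific to them, had 6.76, 7.12, 6.68 and 5.21 RPKM in libraries labelled CpG-STAT3dODN, 7.01, 6.96, 7.44 and 9.09 RPKM in those labelled CpG-scrODN and 8.77, 7.27, 9.30 and 7.58 RPKM in those labelled PBS. Its differences, -0.10 in CpG-scrODN minus PBS (limma adjusted p = 0.703) and -0.31 in CpG-STAT3dODN minus PBS (limma adjusted p = 0.327), did not pass, although each library labelled CpG-STAT3dODN was below every library labelled PBS.

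**Figure D3:**
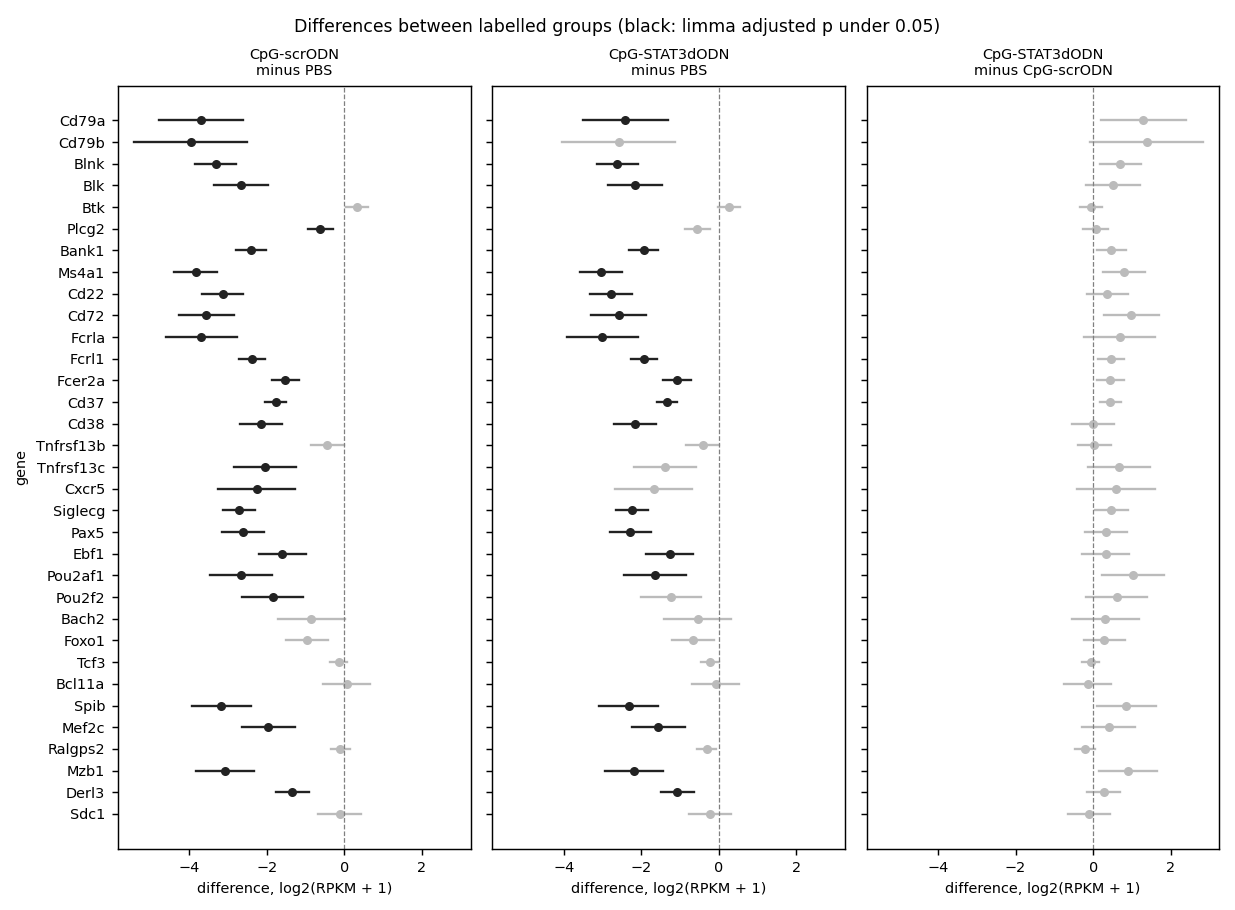
Differences on the log2(RPKM + 1) scale with 95% intervals from the limma fit for the 33 members tested, in 3 comparisons that share 1 horizontal scale; black marks a limma adjusted p under 0.05. In the first 2 panels most members lie left of 0, from -3.96 for Cd79b in CpG-scrODN minus PBS to 0.33 for Btk, and in the third panel 27 of 33 lie right of 0 with none black.

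The plasma cell genes split. Mzb1, an endoplasmic reticulum cochaperone of immunoglobulin assembly, had 4.07, 5.25, 4.96 and 6.94 RPKM in libraries labelled CpG-STAT3dODN, 3.62, 2.24, 3.47 and 0.827 RPKM in those labelled CpG-scrODN and 31.0, 17.9, 19.8 and 49.7 RPKM in those labelled PBS. The 3 groups did not overlap. Its differences were -3.09 in CpG-scrODN minus PBS (limma adjusted p = 0.00033) and -2.18 in CpG-STAT3dODN minus PBS (limma adjusted p = 0.006). In means, that is 11.7-fold lower in CpG-scrODN and 5.58-fold lower in CpG-STAT3dODN libraries than in PBS libraries. Derl3, a channel component for proteins exported from the endoplasmic reticulum for degradation, had 0.534, 1.03, 0.918 and 0.364 RPKM in libraries labelled CpG-STAT3dODN, 0.562, 0.379, 0.624 and 0.0863 RPKM in those labelled CpG-scrODN and 3.78, 2.29, 2.52 and 1.82 RPKM in those labelled PBS. The differences for Derl3 were -1.34 in CpG-scrODN minus PBS (limma adjusted p = 0.00163) and -1.06 in CpG-STAT3dODN minus PBS (limma adjusted p = 0.0133), and without replicate 1 labelled CpG-STAT3dODN the second missed the threshold (limma adjusted p = 0.0509).

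The 2 genes that define plasma cells in textbooks did not pass. Sdc1, which encodes the plasma cell surface antigen CD138 and is also found outside the lineage, had 9.80, 7.001, 10.1 and 5.62 RPKM in libraries labelled CpG-STAT3dODN, 8.12, 10.1, 10.5 and 6.27 RPKM in those labelled CpG-scrODN and 12.05, 13.7, 7.83 and 5.99 RPKM in those labelled PBS. All groups overlapped, and the differences were -0.12 in CpG-scrODN minus PBS (95% interval -0.67 to 0.43) and -0.22 in CpG-STAT3dODN minus PBS (-0.78 to 0.33), with limma adjusted p of 0.839 and 1. Prdm1, the repressor that drives plasma cell fate, had 0.673, 0.914, 0.768 and 0.472 RPKM in libraries labelled CpG-STAT3dODN, 0.667, 0.600, 0.534 and 0.399 RPKM in those labelled CpG-scrODN and 0.820, 0.645, 1.08 and 1.19 RPKM in those labelled PBS. It fell short of the filter, and in the fit without the filter its differences were -0.31 in CpG-scrODN minus PBS (limma adjusted p = 0.174) and -0.18 in CpG-STAT3dODN minus PBS (limma adjusted p = 0.718).

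Of 20 further plasma cell symbols, 16 were tested, and 1 was lower and 0 higher in CpG-scrODN minus PBS, with 0 called in CpG-STAT3dODN minus PBS, where 1 had an unadjusted p under 0.05 in limma. That gene, Jchain, which joins secreted IgM and IgA, had 7.62, 8.86, 12.3 and 13.0 RPKM in libraries labelled CpG-STAT3dODN, 7.84, 4.40, 7.77 and 0.165 RPKM in those labelled CpG-scrODN and 46.9, 24.8, 33.4 and 36.9 RPKM in those labelled PBS. Jchain was lower, at -2.92, in the first comparison (limma adjusted p = 0.00769), and its difference of -1.67 in the second did not pass (limma adjusted p = 0.208). Replicate 4 labelled CpG-scrODN held 0.165 RPKM of Jchain, the lowest of the 12 libraries, as it did for Mzb1 and Derl3. Xbp1, the secretory pathway regulator, ranged over 45.1 to 62.4 RPKM in libraries labelled CpG-STAT3dODN, 34.1 to 46.1 RPKM in those labelled CpG-scrODN and 39.6 to 60.7 RPKM in those labelled PBS. The differences for Xbp1, -0.16 in CpG-scrODN minus PBS (limma adjusted p = 0.628) and 0.20 in CpG-STAT3dODN minus PBS (limma adjusted p = 0.891), did not pass. Irf4, needed for plasma cell formation, ranged over 0.698 to 2.08 RPKM in libraries labelled CpG-STAT3dODN, 0.312 to 0.828 RPKM in those labelled CpG-scrODN and 1.22 to 6.49 RPKM in those labelled PBS. The differences for Irf4, -1.12 in CpG-scrODN minus PBS (limma adjusted p = 0.113) and -0.69 in CpG-STAT3dODN minus PBS (limma adjusted p = 0.603), did not pass either. Tnfrsf17, the plasma cell receptor BCMA, was under 0.1 RPKM in every library.

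Libraries labelled CpG-STAT3dODN were set against those labelled CpG-scrODN as well. By the column headers this comparison is SCR against PBS, so it is given as one between labels and not as the effect of the decoy. Among the members, 0 of 33 passed, as did 0 of all 10886 genes (limma, where 295 genes had an unadjusted p under 0.05). At that unadjusted level 12 of 33 members were higher and 0 lower, against 2.14% of all genes higher and 0.570% lower. The median difference was 0.45 for the members tested and 0.032 for all genes, and 27 of 33 members had a positive difference. The groups did not overlap, with the CpG-STAT3dODN libraries higher, for 8 of 33 members, against 3.38% of all genes. These were Ms4a1, Fcer2a, Cd37, Pou2af1, Pou2f2, Foxo1, Spib and Mzb1.

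In values, Pou2af1 averaged 5.29 ± 2.81 RPKM in libraries labelled CpG-STAT3dODN and 2.003 ± 0.879 RPKM in those labelled CpG-scrODN (SD, n = 4 each). That is a difference of 1.02, and its 95% interval ran over 0.22 to 1.83. Ms4a1 averaged 3.34 ± 0.832 RPKM in libraries labelled CpG-STAT3dODN and 1.52 ± 0.616 RPKM in those labelled CpG-scrODN, which is 0.80 on the log2 scale (95% interval 0.25 to 1.35). Mzb1 averaged 5.31 ± 1.20 RPKM in libraries labelled CpG-STAT3dODN and 2.54 ± 1.298 RPKM in those labelled CpG-scrODN, which is 0.90 (0.16 to 1.65). For Cd79a the difference was 1.29 (0.20 to 2.39), and 0.90 without the 2 low-Fos libraries. When libraries were weighted by their quality in the fit, 607 genes and 16 members passed, all 16 members higher in CpG-STAT3dODN, so the 0 depends on how the libraries are weighted. Without the 2 low-Fos libraries 0 members passed and their median difference was 0.32.

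How much a member differed went with its level in the CpG-scrODN group, where 8 members averaged at least 5 RPKM, a threshold chosen after the values were seen. These were Btk at 102 RPKM, Tcf3 at 32.5, Cd37 at 16.6, Bcl11a at 14, Plcg2 at 11.5, Sdc1 at 8.76, Ralgps2 at 7.62 and Tnfrsf13b at 5.26 RPKM. Of these, 2 were lower in CpG-scrODN minus PBS and 1 in CpG-STAT3dODN minus PBS. Just under the threshold lay Cd79a at 4.94 RPKM and Cd79b at 3.92 RPKM. Of the 25 tested members under 5 RPKM, 23 were lower in the first comparison and 19 in the second. They include the 8 members that passed the filter only because of the PBS-labelled libraries, where they had to be high. Of those 8, all 8 were lower in the first comparison and 7 in the second, so this contrast with the members of higher level is partly set by the filter. The highest means in the PBS-labelled libraries were instead those of Cd79b at 102, Cd79a at 86.5, Btk at 81.5 and Cd37 at 59.7 RPKM, and the spread of Cd79a, 45.0 to 187 RPKM, and of Cd79b, 35.3 to 260.3 RPKM, covers the means of Btk and Cd37. A low level in the CpG-scrODN group and a low ratio to PBS share that group's values, so the 2 measures are not independent.

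How far replicate 4 stood from the other 3 libraries differed between members. In the PBS-labelled group the ratio of replicate 4 to the mean of replicates 1 to 3 had a median of 1.58 over the 35 genes and ran from 0.447 for Cr2 to 5.27 for Cd79b. In the CpG-STAT3dODN group the median was 1.07, from 0.274 for Cd38 to 6.23 for Cd79b. In the CpG-scrODN group, whose replicate 4 had high Fos, the median was 0.654 and replicate 4 was the lowest library for 28 of 35 members. Across the 35 members, the ratios of the CpG-STAT3dODN and the PBS group had a Spearman correlation of 0.86, and those of the CpG-scrODN and the PBS group one of 0.027. Both describe genes that share the libraries. Cd79a, Cd79b, Cxcr5, Fcrla and Bach2 were high in replicate 4 of both groups, and Bcl11a, Cr2, Derl3 and Sdc1 were low in both. Over all genes, the deviations of these 2 libraries from their group means correlated at 0.817. The part of these libraries' other features in the member values was not tested.

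**Figure D4:**
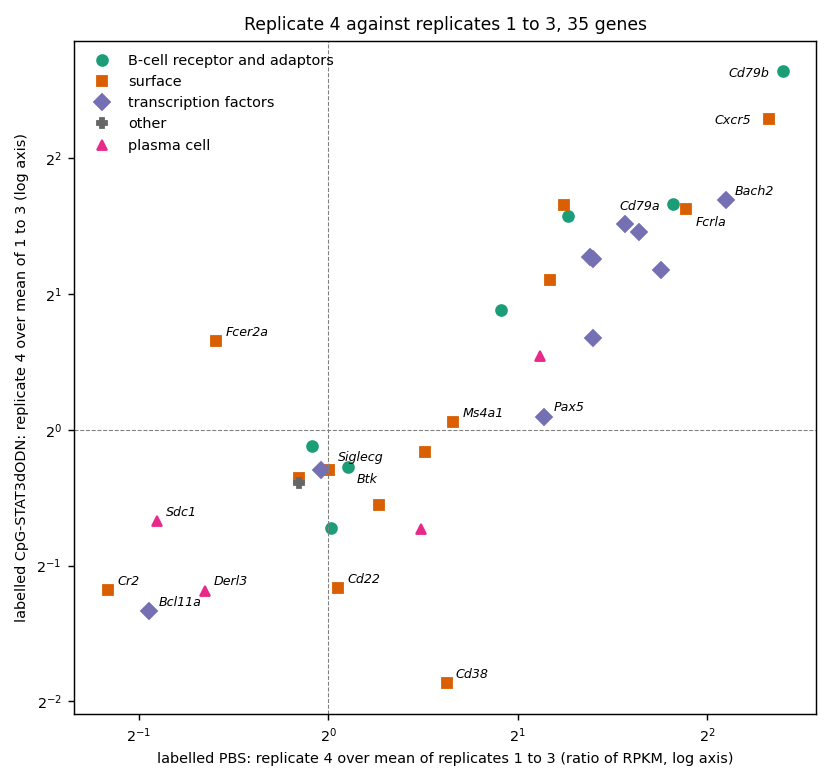
Ratio of replicate 4 to the mean of replicates 1 to 3 for 35 genes, in the PBS-labelled group (horizontal) and the CpG-STAT3dODN-labelled group (vertical), on log axes with symbols by role. Cd79b lies highest on both axes at 5.27 and 6.23, Bcl11a, Cr2, Derl3 and Sdc1 lie below 1 on both, and Fcer2a and Cd38 lie off the diagonal.

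Markers of other cells were read beside the B-lineage genes, and only some were lower with them. Of 7 erythroid, 2 natural killer, 2 conventional dendritic and 2 megakaryocyte genes tested, 0 passed in either comparison with PBS. Median differences of the megakaryocyte genes were positive, 0.97 in CpG-scrODN minus PBS and 0.66 in CpG-STAT3dODN minus PBS. Of 3 plasmacytoid dendritic genes tested, 1, Tcf4, was lower in CpG-scrODN minus PBS (-0.93, limma adjusted p = 0.0253) and 0 in CpG-STAT3dODN minus PBS. Tcf4 passed the filter only because of the PBS-labelled libraries, where it was high. Its call ended without replicate 1, 2 or 3 labelled CpG-scrODN. The 12 T-cell genes summed to 3.53 to 7.46 RPKM in libraries labelled CpG-STAT3dODN, 3.13 to 6.25 RPKM in those labelled CpG-scrODN, and 19.3 to 62.7 RPKM in those labelled PBS. Of the 3 that were tested, Cd2, Cd3g and Lck, all 3 were lower in both comparisons with PBS. Cd2 and Cd3g passed the filter only because of the PBS-labelled libraries, where they were high, and Lck passed without them. Cd2, an adhesion receptor that mouse B cells carry too, had differences of -3.14 in CpG-scrODN minus PBS (limma adjusted p = 0.000816) and -2.83 in CpG-STAT3dODN minus PBS (limma adjusted p = 0.00296). In CpG-STAT3dODN minus PBS the call of Lck ended without replicate 1 or 2 labelled CpG-STAT3dODN or replicate 1 labelled PBS. Cd3e, a chain of the T-cell receptor complex, was at 0.249 to 0.724 RPKM in libraries labelled CpG-STAT3dODN, 0.252 to 0.627 RPKM in those labelled CpG-scrODN and 0.986 to 2.67 RPKM in those labelled PBS. The 6 neutrophil genes summed to 1855 to 4131 RPKM in libraries labelled CpG-STAT3dODN, 516 to 2186 RPKM in those labelled CpG-scrODN and 1714 to 5129 RPKM in those labelled PBS. Of these, 0 of 6 passed in limma in either comparison with PBS, with 5 at an unadjusted p under 0.05 in CpG-scrODN minus PBS and 0 in CpG-STAT3dODN minus PBS. The 8 monocyte and macrophage genes summed to 200.4 to 404 RPKM in libraries labelled CpG-STAT3dODN, 145 to 230.3 RPKM in those labelled CpG-scrODN and 281 to 508 RPKM in those labelled PBS. Of 6 tested, Ly6c2, an antigen of inflammatory monocytes, was lower in CpG-scrODN minus PBS, at -1.67, and 0 passed in CpG-STAT3dODN minus PBS, with 3 at an unadjusted p under 0.05 in limma. Genes of early B-cell precursors summed to at most 1.01 RPKM in libraries labelled CpG-STAT3dODN, 0.851 RPKM in those labelled CpG-scrODN and 1.62 RPKM in those labelled PBS, and Rag1, Rag2, Vpreb2 and Igll1 were under 0.1 RPKM in every library. Of 8 tested genes of leukaemic progenitors, Mpo (-2.08), Prtn3 and Elane were lower in CpG-scrODN minus PBS, and 0 passed in CpG-STAT3dODN minus PBS, where 5 had an unadjusted p under 0.05 in limma. The 8 differences went both ways, from -2.08 to 1.23 in CpG-scrODN minus PBS and from -1.17 to 0.84 in CpG-STAT3dODN minus PBS. Cd34, of the same list, had 24.5 to 38.0 RPKM in libraries labelled CpG-scrODN and 5.15 to 33.8 RPKM in those labelled PBS. In libraries labelled CpG-STAT3dODN, Cd34 had 8.70 to 43.1 RPKM. Kit, which encodes the antigen the cells were selected on, ranged over 25.7 to 51.1 RPKM in libraries labelled CpG-STAT3dODN, 28.3 to 40.5 RPKM in those labelled CpG-scrODN and 10.5 to 37.8 RPKM in those labelled PBS. Its differences, 0.75 in CpG-scrODN minus PBS (limma adjusted p = 0.319) and 0.84 in CpG-STAT3dODN minus PBS (limma adjusted p = 0.415), did not pass. The part of these cell types in the B-lineage differences was not tested.

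**Figure D5:**
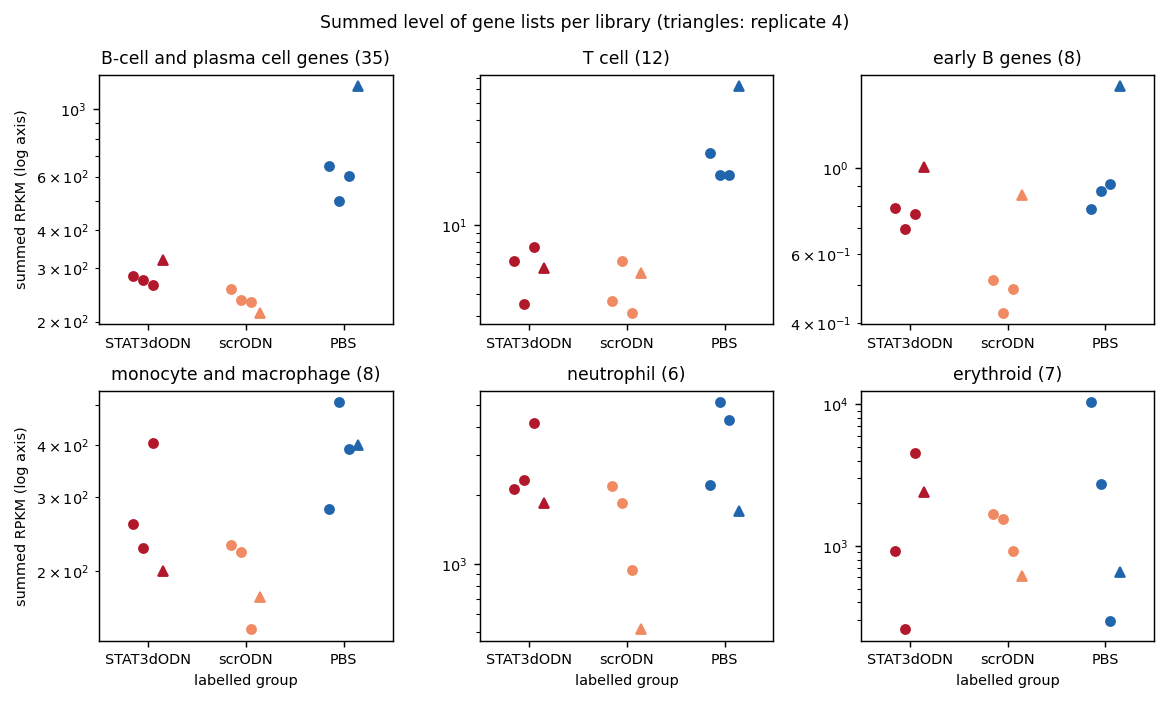
Summed RPKM (log axis) per library for the 35 B-cell and plasma cell genes and 5 marker lists, by labelled group, with replicate 4 as triangles. The B-lineage and T-cell sums of all 4 libraries labelled PBS lie above those of the other 8 libraries, while neutrophil and erythroid sums overlap between groups.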

How the data were processed

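Gene expression was deposited by the authors as RPKM, reads scaled to transcript length and library size, per the names of the deposited files, in 12 tables of 24310 features. The submitters' processing notes name mm10, TopHat 1.3.1 and Partek 6.12.0713 without roles. Other steps are not given by any label or header. RPKM are not counts, and whole reads could not be recovered (50.6% to 55.0% of low values lay within 0.05 of a whole read), so no count test was run. Depth was estimated from low values of single-transcript genes. Genes reaching 1 RPKM in 4 or more of 12 libraries were kept (10886). One limma 3.58.1 fit in R 4.3.3 held all 3 labelled groups on log2(RPKM + 1), with an intensity trend, two-sided, and Benjamini-Hochberg adjustment over all genes within each comparison. A gene was called at an adjusted p under 0.05. This scale understates changes of low genes. Linear folds are ratios of mean RPKM. The procedure was tested on simulated data with independent normal noise, which did not hold the shared deviation of the libraries numbered 4.

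Groups were taken from the sample labels, with 4 libraries each. All 12 column headers named another group. All 35 listed genes are named. Of other lists, called genes with the largest differences are named, plus Jchain, Xbp1, Irf4, Kit and Fos; some items are not reported here. Any further gene was named after its values were seen. Members and lists were chosen with earlier results of these data known. Symbols were matched exactly, and promoters came from RefSeq GRCm38.p6. Libraries of a group shared the same value for at most 2 of the genes kept, and none was counted as a repeat of another. The alternatives tried were library quality weights, 2-group fits, scaling, pseudocounts, filters, the replicate block and leaving out libraries. Python 3.11.15 and matplotlib 3.10.9 made summaries and figures.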

Additional observations from a re-analysis of the deposited data

Results flagged for a closer look

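Of 105 groups of 4 libraries (35 genes in 3 groups), 8 held 1 library whose gap to the nearest of the others exceeded Dixon's 95% critical value, where chance gives about 1 in 20. Of these, 7 were replicate 4, in 4 cases of the CpG-STAT3dODN group and in 3 of the PBS group. In the CpG-STAT3dODN group, replicate 4 was high for Pou2f2 (6.78 RPKM, others 2.10 to 2.56) and for Bach2 (4.67 RPKM, others 1.296 to 1.62). It was low there for Plcg2 (8.28 RPKM, others 13.2 to 14.1) and for Bcl11a (6.21 RPKM, others 15.3 to 16.1). In the PBS group, replicate 4 was high for Cd37 (76.9 RPKM, others 53.3 to 54.6) and for Cxcr5 (18.2 RPKM, others 3.24 to 4.13), and low for Bcl11a (8.12 RPKM, others 14.6 to 16.2). In the CpG-scrODN group, replicate 1 was high for Blk (1.02 RPKM, others 0.494 to 0.534).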

How the results depend on the processing

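No difference of a called member changed sign under any alternative in which it was tested, 19 for most members and 18 for the 7 that fell short of the 5 RPKM floor. Of the called members, 23 of 25 (CpG-scrODN minus PBS) and 15 of 20 (CpG-STAT3dODN minus PBS) passed under every alternative run for them. Lost under some were Plcg2 and Cxcr5 in the first comparison, and Cd79a, Ebf1, Pou2af1, Mef2c and Derl3 in the second. Uncalled differences changed sign for 3, 1 and 8 members. With quality weights, 26 members were lower and 1, Btk, higher in each comparison with PBS. For CpG-scrODN minus PBS, genes called (452, of which 12 higher and 440 lower) became 1812 with quality weights (730 higher, 1082 lower), 163 with a floor of 5 RPKM (fewer genes tested) and 686 without both low-Fos libraries. Quantile normalization gave 75 higher and 318 lower. For CpG-STAT3dODN minus PBS, 202 became 78 with 2 groups only, 1248 with weights (651 higher, 597 lower), 76 with the floor, 337 without both low-Fos libraries and 392 without 3 libraries numbered 4. For CpG-STAT3dODN minus CpG-scrODN, 0 genes became 1 with 2 groups only and 607 with weights (532 higher, 75 lower), and 0 members became 16 with weights. Estimation of the weights stopped short of full convergence. Leaving out single libraries gave 279 to 560, 121 to 218 and 0 to 0 genes and 24 to 25, 15 to 24 and 0 to 0 members. The lowest, 279, came without CpG-scrODN replicate 3. The 121 came without CpG-STAT3dODN replicate 2, and without PBS replicate 1 the count was 131. Where no reason is given, the cause was not tested. Same-numbered libraries deviated together in 5 of 12 pairs (correlation over 0.1, range -0.341 to 0.817), with all 3 pairs numbered 4 among them (0.151, 0.817 and 0.193). The labels give no shared source and 7 pairs were at or under 0.1, so the numbers were not taken to pair the libraries. The replicate block gave 523, 213 and 0 genes and 26, 22 and 0 members, adding Foxo1 in CpG-scrODN minus PBS (limma adjusted p = 0.0354) and Cd79b and Tnfrsf13c in CpG-STAT3dODN minus PBS (0.0462 and 0.0336). Depth limits members under 1 RPKM most.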

Other observations

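Genes of B-cell subsets were mostly too low to test, 5 of 13 passing the filter. Of these, 3 were lower in CpG-scrODN minus PBS, namely Dtx1, a marginal zone gene (-1.99, limma adjusted p = 0.000606), Bcl6, the germinal centre repressor (-1.07, limma adjusted p = 0.012), and Plac8 (-2.26, limma adjusted p = 0.0118). In CpG-STAT3dODN minus PBS, 1 of 5 was lower, Dtx1 (-1.54, limma adjusted p = 0.006). Dtx1 and Bcl6 passed the filter only because of the PBS-labelled libraries, where they were high. Ccr7, a homing receptor singled out after its values were seen, had 0.963, 0.599, 0.754 and 14.1 RPKM in libraries labelled CpG-STAT3dODN, 0.934, 0.442, 0.549 and 0.599 RPKM in those labelled CpG-scrODN and 2.56, 4.69, 4.55 and 45.4 RPKM in those labelled PBS. The highest value of Ccr7 in the CpG-STAT3dODN and in the PBS group was that of replicate 4.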
